A study of Anableps anableps with 8 samples.

Results

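Semaphorins, slits and netrins, with their neuropilin, plexin, Robo and Unc5 receptors, were followed through the cell classes of the retina of the four-eyed fish Anableps anableps. All genes of the deposited gene table whose symbol starts with sema, plxn, nrp1, nrp2, slit1, slit2, slit3, robo, ntn or unc5 were taken, which gave 69 of 22934 genes. One of them, UNC50, matches by its letters alone and is not an Unc5 receptor, so 68 are guidance genes. The 69 carry 61 distinct symbols, and 7 symbols cover more than one copy (15 genes), which are told apart by identifier. The sources used here do not say how reads were split between near-identical copies, so values of single copies are uncertain.

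Nuclei were taken from whole retinas of adult fish, and the RNA of single nuclei was sequenced after combinatorial barcoding (Parse Evercode). The series text speaks of 5 biological replicates, and the labels list 8 technical sublibraries of 1 multiplexed pool, with no treatment or genotype. The matrix with gene-level counts holds 2 sublibraries and 2 retina names, called retina 1 and retina 2 here, and neither name matches a label. The values of both names are therefore given side by side with no p-value, and the intervals cover counting error only.

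Guidance molecules steer growing axons and migrating cells. Class 3 semaphorins are secreted and act through neuropilins with A-type plexins, whereas semaphorins of classes 4 to 7 sit in the membrane or are anchored to it and bind plexins more directly. Slits are secreted ligands of Robo receptors, and netrins are secreted ligands of DCC, neogenin and the Unc5 receptors, which are linked to repulsion. In the vertebrate retina these systems are known for guiding ganglion cell axons to the optic nerve head and for placing neurites in the right layer. Many of the genes stay active in adult neurons and glia.

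Barcodes with at least 500 unique molecular identifiers (UMIs, one per captured transcript) were taken as nuclei. This left 6430 nuclei, 3221 named retina 1 and 3209 named retina 2, with median depths of 3787 and 4082 UMIs. Clustering and marker genes gave 10 named classes and 3 unnamed clusters, which together hold 5569 nuclei. Each class name stands for nuclei that resemble the class by its markers. The classes were 164 retinal ganglion cell, 571 amacrine, 381 bipolar, 1595 cone, 1509 rod, 431 Müller glia, 378 retinal pigment epithelium, 63 iridophore, 107 connective tissue and 46 microglia nuclei. The unnamed clusters are called by a leading gene. The onecutl cluster (128 nuclei) met 5 horizontal cell and 5 amacrine markers, the WNT8B cluster (100) met 10 oligodendrocyte and 5 Müller glia markers, and the MECOM cluster (96) met 18 pigment epithelium and 13 Müller glia markers. High doublet scores were found in 97.92% of MECOM cluster barcodes, against 48.96% in Müller glia and 57.67% in the pigment epithelium. The median depths were 16954.5 UMIs in the MECOM cluster, 6050 in Müller glia and 7527 in the pigment epithelium. Whether the MECOM cluster is a class of its own was not tested. Barcodes that also carried photoreceptor markers of another class (over 10% of the median level in rods or cones) made up 1.13% of the cone class, 23.5% of the rod class and 37.0 to 82.7% of the other classes. Values without such barcodes are printed for a few of the results.

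The first comparison asked in which class each gene was highest. Levels are given as CPM, the UMIs of a gene per 1000000 UMIs of the class, and since gene lengths are unknown here they are compared between classes and not between genes. A gene was said to lead in a class when that class was highest in both retina names and at least 2-fold above the next class in each, with at least 20 UMIs there. Of the 69 genes, 62 reached that number of UMIs in their highest class, and 8 of the 62 led in 1 class, next to 13.3% of all 10586 genes that reached it. The 8 were slit1a and nrp2a in ganglion cells, NTNG2 and sema4ab in rods, sema3aa in the onecutl cluster, SEMA3E and ROBO1 ENSABLG00000018772 in connective tissue, and unc5da in Müller glia. The members' share at this setting, 12.9%, is near that of all genes. It lay further off under some other settings. Without high doublet scores it was 41%, next to 24.2% of all genes, and at 3-fold 3.23%, next to 6.17%. These differences were not tested. The MECOM cluster counted as a class in this rule, and leads with that cluster alone left out were not computed. In retina 2 it was the next class for NTN4 ENSABLG00000018048 (1.86-fold) and SEMA3C ENSABLG00000006559 (1.88-fold), which passed 2-fold in retina 1. Whether these 2 genes would lead without that cluster is not known. It was also the next class in both retina names for plxna1a, unc5db and ntn1b, which were highest in the pigment epithelium. The folds over it in retina 1 and retina 2 were 1.45 and 1.04 for plxna1a and 1.35 and 1.47 for unc5db. For ntn1b they were 1.02 and 3.02. The map of levels by class shows all 62.

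**Figure D1:**
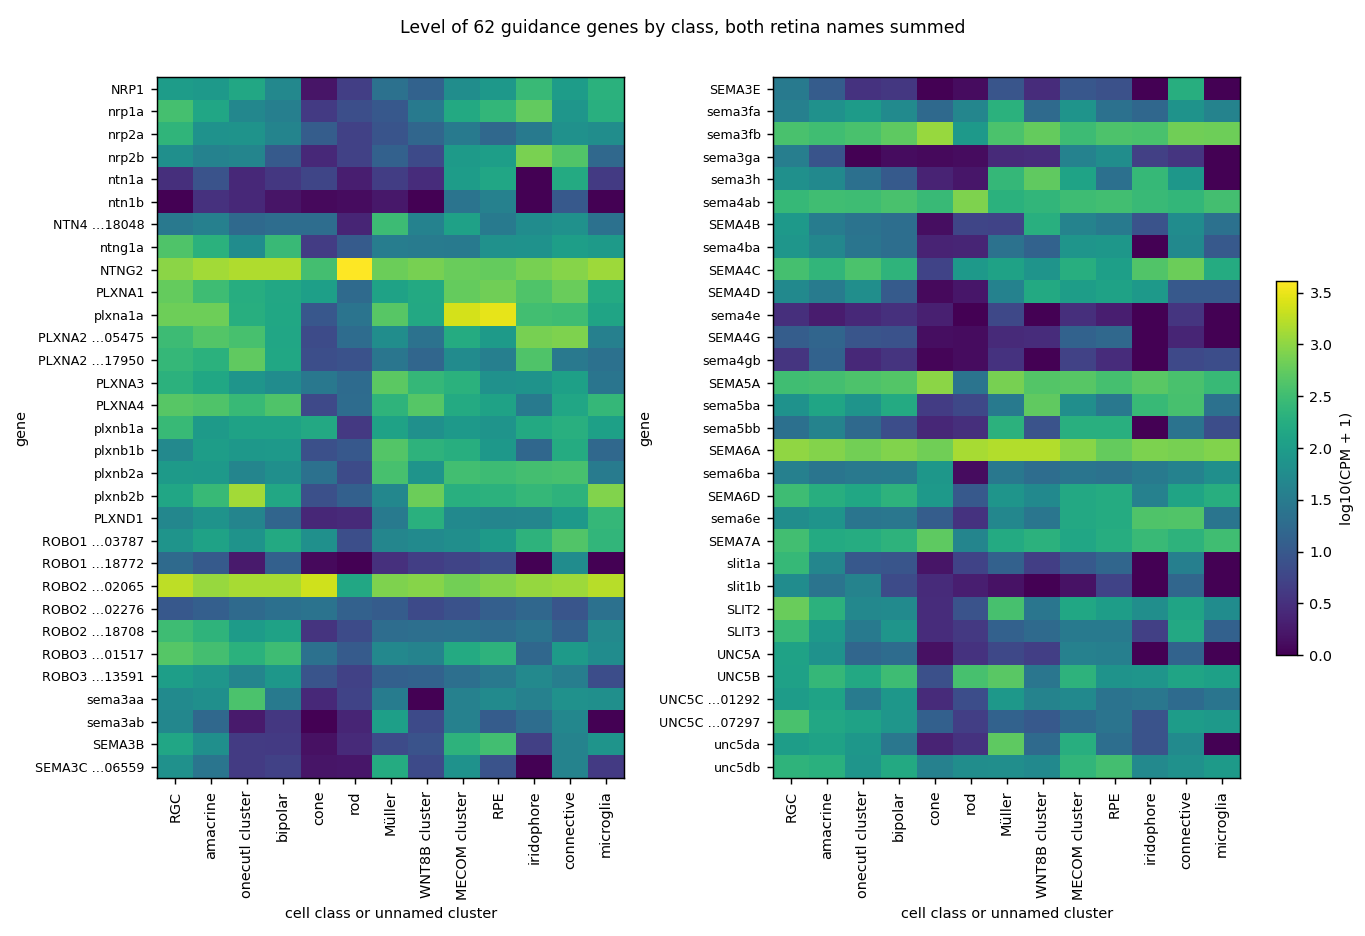
Colour gives the level, as log10(CPM + 1) with both retina names summed, of the 62 guidance genes (rows) in 10 named classes and 3 unnamed clusters (columns). The NTNG2 row is brightest in rods and the plxna1a row in the pigment epithelium and the MECOM cluster, and all 4 slit rows are brightest in ganglion cells.

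By highest level alone, ganglion cells held the top value of 14 of the 62 genes, while 11.7% of all genes peaked there. Müller glia held 11, next to a share of 9.96% over all genes, and the pigment epithelium 8, next to 9.57%. Connective tissue held 7 (6.46%), cones 6 (12%), the WNT8B cluster 5 (6.91%), the onecutl cluster 3 (5.54%) and iridophores 3 (5.06%). Rods held 2, although 18.1% of all genes peaked in them, and amacrine cells 2 (3.3%). Microglia held 1 (5.55%), and bipolar cells (3.17%) and the MECOM cluster (2.74%) held none.

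Among the secreted ligands, all 4 slit genes were highest in ganglion cells. The slit1a gene, 1 of 2 copies of the repellent Slit1, had 244 CPM in ganglion cells of retina 1 and 277 CPM in those of retina 2. Amacrine cells came next with 49.9 and 40.2 CPM, and cones had 0.92 CPM or less. The signal came from the ganglion cell cluster with 15 markers, at 328 and 346 CPM, while the cluster that met only 3 ganglion cell markers had 24.5 and 0 CPM. Without barcodes that carried photoreceptor markers, slit1a stood at 267 and 424 CPM in 55 ganglion cell nuclei, against 182 and 65.4 CPM in amacrine cells, and the lead in retina 1 was then under 2-fold. The lead also fell under 2-fold or moved under 3 of the 14 other settings in addition to this one, with amacrine cells highest at the coarsest clustering. SLIT2 had 623 and 603 CPM in ganglion cells and 408 and 324 CPM in Müller glia, 2 classes that differ by less than 2-fold. SLIT3 had 376 and 215 CPM in ganglion cells, against 155 and 151 CPM in connective tissue, so its lead held in retina 1 alone. The second copy, slit1b, had 46.1 and 63.7 CPM in ganglion cells, close to the 35.4 and 46.1 CPM of the onecutl cluster. An amacrine cluster of 17 nuclei had more, at 423 and 348 CPM from 70 UMIs, and lists slit1b among its 10 leading genes.

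Class 3 semaphorins were spread over glia, pigment cells, connective tissue and cones. The sema3aa gene, a copy of the repellent Sema3A, had 322 and 442 CPM in the onecutl cluster in retina 1 and retina 2. The next class in each stood at 71.9 CPM (connective tissue) and 66.7 CPM (amacrine), so the 2 sets of values do not overlap. Nuclei with onecutl and cx52.7 among their leading genes were named horizontal cell when the clusters were made coarser, and sema3aa then led in horizontal cells. SEMA3E, a ligand known for acting on PlexinD1, had 266 and 98.2 CPM in connective tissue, against 23.1 and 34.8 CPM in ganglion cells. Of its 137 UMIs in connective tissue, 59 came from a single nucleus, and 91.6% of the connective tissue barcodes had high doublet scores. Without those barcodes SEMA3E was highest in ganglion cells. In cones sema3fb, a copy of Sema3F, had 1136 and 1165 CPM, against 84.3 and 94.3 CPM in rods and 259.7 to 782 CPM in the classes other than photoreceptors. Free RNA, taken from barcodes under 100 UMIs, held 501 CPM of sema3fb. In the tbx5-marked and VAX2-marked Müller glia set out below, sema3fb had 175 and 347 CPM. Without barcodes that carried photoreceptor markers these were 11.7 and 9.44 CPM, from 4 and 5 UMIs. The class 3 member sema3h had 583 and 517 CPM in the WNT8B cluster and 235 and 275 CPM in Müller glia, with 14.8 CPM or less in bipolar cells, cones, rods and, at 0 UMIs, microglia.

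Other class 3 genes peaked in Müller glia, all short of the 2-fold margin in at least 1 retina name. SEMA3C ENSABLG00000006559 had 163 and 165 CPM there, sema3ab 136 and 85.8 CPM, and sema3fa 205 and 199 CPM. SEMA3B had 312 and 338 CPM in the pigment epithelium, and sema3ga 47.4 and 69.3 CPM. The remaining members, SEMA3D with 41 UMIs and SEMA3C ENSABLG00000017661 with 10 UMIs over all nuclei, were too rare to place.

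NTN4 ENSABLG00000018048, a netrin of basement membranes, had 306 and 298 CPM in Müller glia, against 83.5 and 161 CPM in the MECOM cluster and 0.72 and 1.90 CPM in rods. The ntn1a gene, a copy of the classical chemoattractant netrin-1, was highest in connective tissue with both names summed, at 95.9 and 223 CPM, next to 127 and 144 CPM in the pigment epithelium and 1.36 and 2.55 CPM in ganglion cells. Its copy ntn1b had 29.99 and 45.4 CPM in the pigment epithelium. NTN5 had 3 UMIs over all nuclei, the second NTN4 copy (ENSABLG00000011499) 33 UMIs, and NTN3 none, which allows at most 3 counts in 54700414 UMIs.

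Netrin-G genes encode membrane-anchored synaptic adhesion proteins that are related to netrins by sequence and do not bind DCC. NTNG2 had 4003 and 4206 CPM in rods, against 1629 CPM in bipolar cells of retina 1 and 1487 CPM in the onecutl cluster of retina 2 as the next class. All 4 rod clusters lay between 3626 and 4402 CPM. Free RNA, measured in barcodes under 100 UMIs, held 1096 CPM of NTNG2, close to its level in many classes. Once barcodes with photoreceptor markers were left out, NTNG2 stood at 79.5 and 28.2 CPM in Müller glia, against 514 and 742 CPM with them. In the pigment epithelium it stood at 41.1 and 35.1 CPM without them, and at 628 and 534 CPM with them. Bipolar cells had 577 and 505 CPM without them, and rods 4036 and 4259 CPM. The second netrin-G gene, ntng1a, had 414 and 416 CPM in ganglion cells and 277 and 276 CPM in bipolar cells, with 14.4 CPM or less in rods and 3.61 CPM or less in cones.

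**Figure D2:**
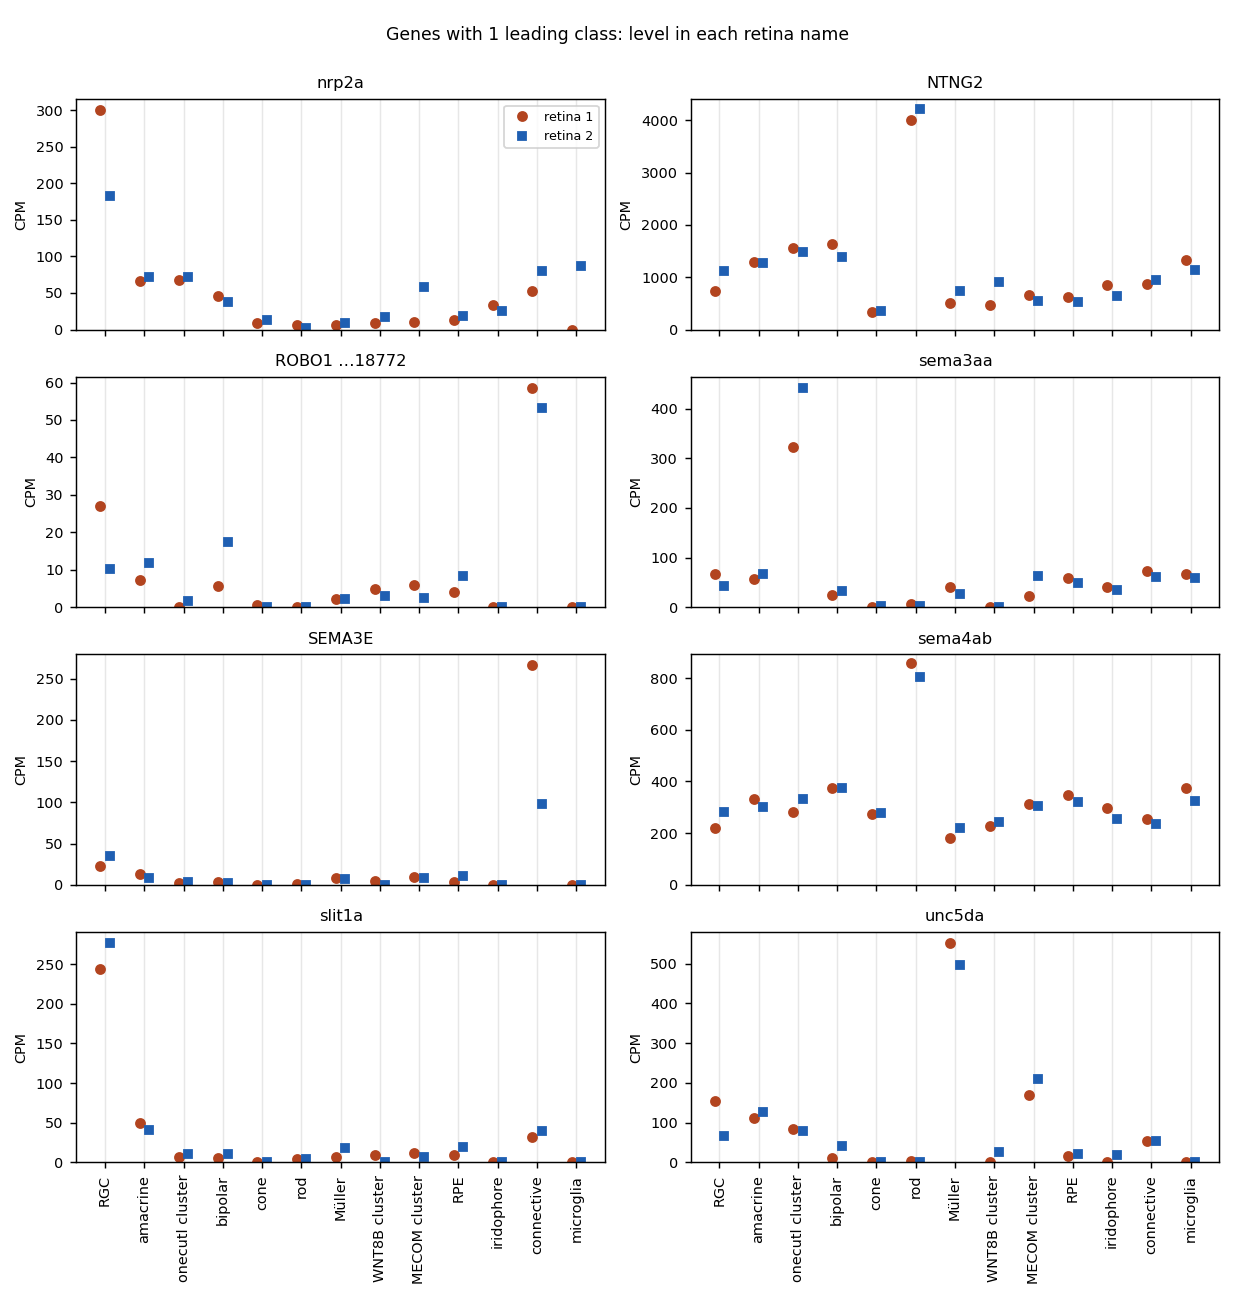
Each panel gives the CPM of 1 gene with a leading class in each of the 13 classes and clusters, as a circle for retina 1 and a square for retina 2. The 2 retina names fall close together in rods for NTNG2 (4003 and 4206 CPM) and apart in connective tissue for SEMA3E (266 and 98.2 CPM).

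Among the membrane-bound semaphorins, sema4ab, a copy of the immune and neuronal semaphorin Sema4A, had 859 and 803 CPM in rods. Bipolar cells came next with 375 and 374 CPM, and no other class passed 374 CPM. SEMA5A, which carries thrombospondin repeats, separated the photoreceptors in the opposite way. It had 962 and 954 CPM in cones, 755 and 758 CPM in Müller glia and 23.8 and 24.04 CPM in rods. SEMA7A, the lipid-anchored ligand of PlexinC1 and integrins, had 505 and 528 CPM in cones, against 40.3 and 46.2 CPM in rods. SEMA6A, a ligand of A-type plexins, was broad, with 1615 and 1532 CPM in Müller glia, 1507 and 1612 CPM in the WNT8B cluster and 1423 and 1389 CPM in rods, and a lowest value of 556 CPM in the pigment epithelium.

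The WNT8B cluster was highest for 4 of the 16 membrane-bound semaphorins that reached the UMI minimum, next to 6.91% of all genes. Of these, SEMA4B had 188 and 189 CPM there, SEMA4D 183 and 139 CPM, and sema5ba 597 and 505 CPM, with SEMA6A as the fourth. SEMA4D is known in mammals as a product of oligodendrocytes and lymphocytes. Next for SEMA4D came the pigment epithelium with 112 and 128 CPM, less than 2-fold below. For SEMA6A Müller glia were higher in retina 1, and none of the 4 led in the cluster by the 2-fold rule. The sema6e gene had 432 and 417 CPM in connective tissue and 547 and 238 CPM in iridophores, against 9.43 and 11.5 CPM in cones.

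Of the 28 receptor genes, 3 led in a class, next to 13.3% of all genes, namely nrp2a, ROBO1 ENSABLG00000018772 and unc5da. The neuropilins nrp1a, nrp2b and NRP1 were highest in iridophores, the reflective pigment cells of fish. There nrp2b had 830.4 and 671 CPM and nrp1a 621 and 459 CPM. The next values were 448 and 406 CPM for nrp2b in connective tissue and 392 and 334 CPM for nrp1a in ganglion cells. The fourth, nrp2a, led in ganglion cells with 299.9 and 183 CPM, against 67.5 CPM in the onecutl cluster of retina 1 and 86.4 CPM in microglia of retina 2. That lead fell under 2-fold or moved under 6 of 14 other settings. All 4 neuropilins were at 13.2 CPM or less in both photoreceptor classes.

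None of the 11 plexins, the signal-transducing receptors of semaphorins, led in 1 class, next to 13.3% of all genes, and at 11 genes nothing is read from that. The plxna1a gene had 3090.3 and 2917 CPM in the pigment epithelium, 2131 and 2792 CPM in the MECOM cluster and 7.59 and 9.62 CPM in cones. Without barcodes that carried photoreceptor markers it stood at 5375 and 5273 CPM in the pigment epithelium and 3485 and 3806 CPM in the MECOM cluster. The plxnb2b gene had 1261 and 1335 CPM in the onecutl cluster and 1121 and 705 CPM in microglia, and the PLXNA2 copy ENSABLG00000017950 had 603 and 487 CPM in the onecutl cluster. PLXNA3, plxnb1b and plxnb2a were highest in Müller glia, at 527 and 483 CPM for PLXNA3, 476 and 414 CPM for plxnb1b, and 368 and 367 CPM for plxnb2a. Connective tissue, at 378 and 348 CPM, was level with Müller glia for plxnb2a. PLXND1, whose protein binds SEMA3E, had 278 and 246 CPM in microglia and 188 and 204 CPM in the WNT8B cluster.

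Among the Robo receptors of slits, the ROBO2 copies peaked in different classes, while the ROBO1 copies shared a highest class and the ROBO3 copies shared another. ROBO2 ENSABLG00000002065 had 2212 and 2259 CPM in cones, against 146 and 144 CPM in rods. Ganglion cells were next to cones at 1736 and 1828 CPM, a difference under 2-fold. Photoreceptor markers were found in 66.5% of ganglion cell barcodes, and free RNA held 1185 CPM of this gene. The ganglion cell level without photoreceptor-marker barcodes is not printed here. The part of such barcodes or of free RNA in the level given was not tested. The ROBO2 copy ENSABLG00000018708 had 343 and 289 CPM in ganglion cells, 235 and 210 CPM in amacrine cells and 2.5 and 2.4 CPM in cones. The rarer ROBO2 copy ENSABLG00000002276 had 22.1 and 23.6 CPM in cones. Bipolar cells of retina 1 had 22.5 CPM of it and iridophores of retina 2 had 25.5 CPM. ROBO3 ENSABLG00000001517 and ENSABLG00000013591 were also highest in ganglion cells, with 531 and 399 CPM and with 114 and 98.6 CPM. ROBO1 ENSABLG00000003787 had 506 and 345 CPM in connective tissue, and the rare copy ENSABLG00000018772 had 58.6 and 53.1 CPM there from 42 UMIs in 15 nuclei. That lead fell below 2-fold in 1 retina name or moved to another class under 7 of 14 other settings.

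Among the Unc5 receptors of netrins, unc5da had 552 and 496 CPM in Müller glia, against 169 and 211 CPM in the MECOM cluster and 1.38 and 1.20 CPM in cones. UNC5B had 527 and 467 CPM in Müller glia and 375 and 360.0 CPM in rods, but 8.97 and 4.33 CPM in cones. The UNC5C copy ENSABLG00000007297 had 346 and 397 CPM in ganglion cells, and UNC5A 142 and 106 CPM. The unc5db gene had 332 and 339 CPM in the pigment epithelium. DCC itself, which pairs with Unc5 receptors, had 75.0 and 85.4 CPM in cones, 209 and 221 CPM in ganglion cells and 479 and 280.2 CPM in iridophores, with 58.2 CPM as its lowest value, in rods.

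Likeness of pattern was measured as Spearman's rank correlation of log2(CPM + 1) over the 13 classes and clusters, which share libraries and free RNA. The nearest genes of the list were SEMA3E for slit1a (rho 0.95), SLIT3 for ROBO1 ENSABLG00000018772 (0.92), UNC5C ENSABLG00000007297 for nrp2a (0.88) and SEMA3C ENSABLG00000006559 for unc5da (0.86). Neither NTNG2 nor sema4ab had a near match, with UNC5B first for NTNG2 at 0.54 and ROBO2 ENSABLG00000002276 first for sema4ab at 0.50.

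Among other genes of guidance signalling, a list of 41 symbols (coreceptors, collapsin response mediators, Robo adaptors and related genes) gave 59 genes. Of these 48 reached the UMI minimum and 8 led in a class, next to the same 13.3% of all genes. Robo adaptors were among them in separate classes, with srgap1b in ganglion cells (119 and 119 CPM) and SRGAP3 ENSABLG00000000373 in Müller glia (393 and 312 CPM). The Robo3 ligand gene nell2a had 246 and 144 CPM in ganglion cells, and the actin-binding ABLIM3 ENSABLG00000020630 had 1178 and 1157 CPM in rods. The others were dpysl5a and mical3b in the WNT8B cluster, dpysl5b in Müller glia and PTK7 in iridophores.

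Cones were then divided by the opsins that their 7 clusters carried. The genes printed for this division, like those above without a class lead, were chosen after their values were seen. The cluster with the ultraviolet opsin opn1sw1 (186 nuclei, 728 CPM of that opsin) stood apart for several guidance genes. ROBO1 ENSABLG00000003787 had 494 and 294 CPM in it, 63.8 and 90.4 CPM in a cluster with opn1sw2 and other opsins (185 nuclei, 121 CPM of opn1sw1), and 12.1 CPM or less in the other 5 cone clusters. NTNG2 had 1852 and 1683 CPM in the opn1sw1 cluster. It had 535 and 575 CPM in the cluster with opn1sw2 and other opsins, and 227 and 221 CPM in the purer opn1sw2 cluster. The 4 clusters led by long-wave (opn1lw1) or middle-wave (opn1mw1) opsins had 8.98 to 27.2 CPM of it. SEMA6A had 2019 and 1991 CPM, and no other cone cluster passed 739 CPM. SEMA5A ran the other way, with 54.9 and 18.2 CPM in the opn1sw1 cluster and 99.3 and 196 CPM in the purer opn1sw2 cluster. It had 708 and 634 CPM in the cluster with opn1sw2 and other opsins, and 1159 to 1797 CPM in the 4 long-wave and middle-wave clusters. The level in each retina name lay apart from those of all other cone clusters for these 4 genes, SEMA5A included. The same held for other guidance genes, among them ROBO2 ENSABLG00000002065 and SEMA6D (313 and 178 CPM, against 146 CPM or less). The share of all genes that lie apart in this way is not given, so this is not read as a trait of these genes.

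**Figure D3:**
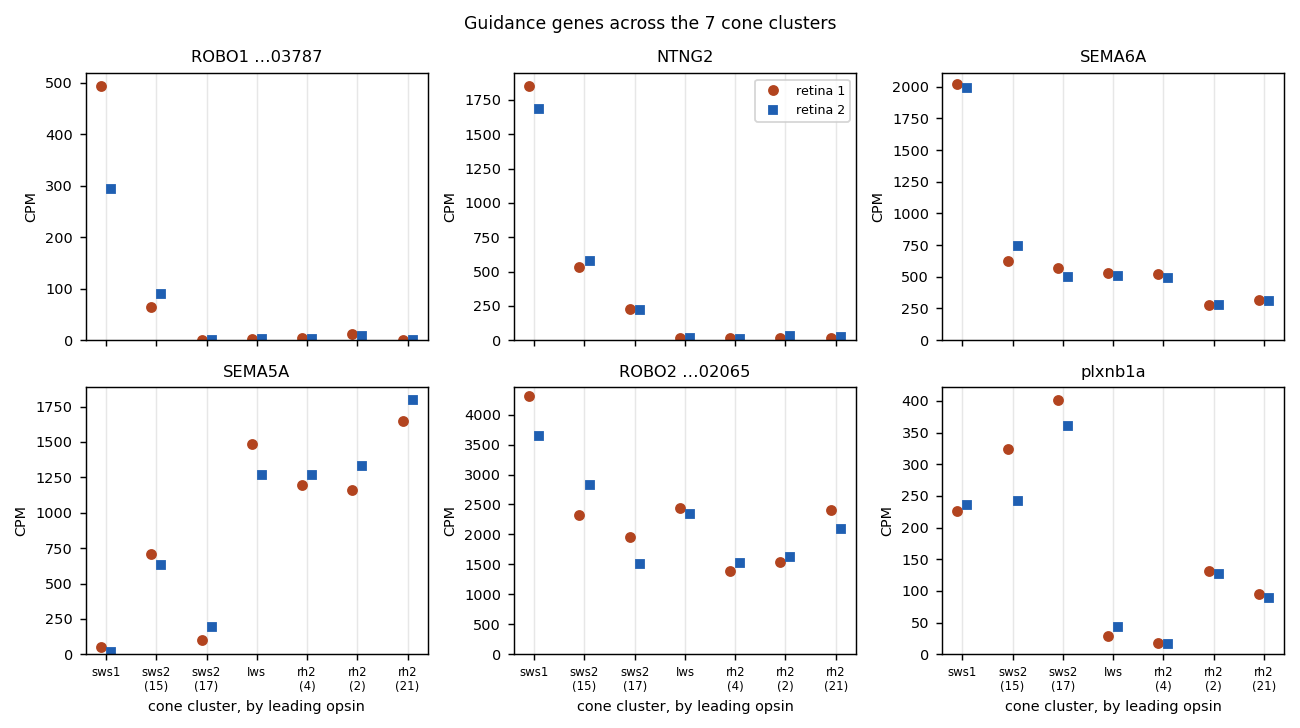
Points give CPM in each of the 7 cone clusters for 6 guidance genes, circles for retina 1 and squares for retina 2; clusters are named by opsin (sws1 for opn1sw1, sws2 for opn1sw2, lws for opn1lw1, rh2 for opn1mw1) with the cluster number in brackets where an opsin leads several. ROBO1, NTNG2 and SEMA6A are highest in the sws1 cluster, where SEMA5A is lowest at 54.9 and 18.2 CPM.

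ROBO2 ENSABLG00000002065 also peaked in the opn1sw1 cluster, at 4308 and 3647 CPM, with a lowest value of 1397 CPM in the other cone clusters. The plexin gene plxnb1a separated the short-wave clusters from the long-wave one, with 402 and 360.5 CPM in the purer opn1sw2 cluster, 226 and 236 CPM in the opn1sw1 cluster and 28.4 and 42.4 CPM in the opn1lw1 cluster. One middle-wave cluster (opn1mw1 ENSABLG00000007592) was lower still at 17.4 and 16.7 CPM, while those of the copy ENSABLG00000007605 stood at 89.7 to 132 CPM. By contrast sema3fb (840 to 1515 CPM) and SEMA7A (361 to 590 CPM) varied under 2-fold over the 7 clusters.

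The next comparison asked whether guidance genes differ between nuclei that carry markers of the dorsal and of the ventral retina. The transcription factor genes tbx5a and tbx5b mark the dorsal side of the developing vertebrate eye, and VAX2 marks the ventral side. Nuclei in which tbx5a or tbx5b but not VAX2 gave a UMI were called tbx5-marked, and those with VAX2 but neither tbx5 gene VAX2-marked. Cones gave 111 tbx5-marked nuclei (54 in retina 1, 57 in retina 2) with a median of 6094 UMIs and 495 VAX2-marked nuclei (244 and 251) with a median of 4811 UMIs. The opsin content differed between them, with 156 against 19.9 CPM of long-wave, 178 against 824 CPM of middle-wave, 233 against 132 CPM of opn1sw1 and 31.2 against 85.0 CPM of opn1sw2. A gene was counted as higher on a side when its log2 ratio passed 1 in each retina name, with at least 10 UMIs over both sides.

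Of 35 genes with at least 10 UMIs in marked cones, 7 were higher in tbx5-marked nuclei, next to 2.59% of the 10331 such genes of the whole matrix. None was higher in VAX2-marked nuclei, next to 2.02% of all genes. That count was 1 or 2 with a single retina name, 1 at a threshold of 1.5-fold, and 3 where a count of 0 was taken as passing. No share of all genes is printed for those settings. The median log2 ratio of the 35 genes was 0.42, against −0.05 over the 10331. The other 34 genes had under 10 UMIs in marked cones and were not judged.

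ROBO1 ENSABLG00000003787 had the highest log2 ratio of the 7. It had 460.1 and 264 CPM in tbx5-marked cones of retina 1 and retina 2, against 12.3 and 17.4 CPM in VAX2-marked cones. These are 273 against 43 UMIs, a log2 ratio of 4.57 (95% interval 4.10 to 5.07), and the values of the sides lie far apart in each retina name. No single nucleus gave more than 28 of the 273 UMIs. ROBO3 ENSABLG00000001517 had 33.5 and 29.3 CPM in tbx5-marked cones, against 16.7 and 11.4 CPM in VAX2-marked cones, a log2 ratio of 1.16 (0.37 to 1.93). Within clusters the log2 ratio of this gene was 2.09 in the opn1lw1 cluster (21 against 4 UMIs), −0.76 in the opn1sw1 cluster (1 against 3 UMIs) and −2.27 in the mixed opn1sw2 cluster (1 against 13 UMIs). ROBO2 ENSABLG00000002065 had 3374 and 3761 CPM in tbx5-marked cones, against 1794 and 1933 CPM in VAX2-marked cones, a log2 ratio of 0.94 (0.87 to 1.01) that stayed just under 2-fold in both.

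Receptors of netrins, a netrin and a netrin-G gene were also among the 7. UNC5C ENSABLG00000007297 had 52.99 and 24.4 CPM in tbx5-marked cones, against 5.80 and 4.02 CPM in VAX2-marked cones, a log2 ratio of 2.95 (1.98 to 3.99). UNC5B had 13.9 and 12.2 CPM in tbx5-marked cones, against 3.63 and 4.02 CPM in VAX2-marked cones, and rested on 10 against 11 UMIs. NTN4 ENSABLG00000018048 had 41.8 and 36.6 CPM in tbx5-marked cones, against 13.8 and 13.4 CPM in VAX2-marked cones, a log2 ratio of 1.52 (0.79 to 2.25). NTNG2 had 636 and 813 CPM in tbx5-marked cones, against 229 and 309 CPM in VAX2-marked cones, a log2 ratio of 1.43 (1.27 to 1.59). The single semaphorin past 2-fold was sema6e, with 25.1 and 26.8 CPM in tbx5-marked cones, against 2.90 and 6.04 CPM in VAX2-marked cones, a log2 ratio of 2.52 (1.44 to 3.65). Free RNA held 179 CPM of UNC5B, 163 CPM of ROBO3 ENSABLG00000001517 and 66.4 CPM of UNC5C ENSABLG00000007297. It held 58.4 CPM of sema6e, 47.8 CPM of NTN4 ENSABLG00000018048 and 1096 CPM of NTNG2. In tbx5-marked cones of each retina name these genes stood below their levels in free RNA. ROBO1 ENSABLG00000003787, at 81.7 CPM in free RNA, stood above it. The part of free RNA in these ratios was not tested. Other semaphorins of cones differed less. The log2 ratio was 0.72 for SEMA6D, 0.52 for SEMA6A, 0.48 for sema3fb and 0.22 for SEMA5A, each with an interval above 0.

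Below 0 lay the intervals of PLXNA1 (log2 ratio −0.41), sema4ab (−0.34 on the same scale) and PLXNA2 ENSABLG00000017950, which had 0 against 16 UMIs and, with 3 counts in place of 0 over the group, a log2 ratio of at most −0.51. Among the other guidance genes, 33 of the list of 59 reached 10 UMIs, and 3 of them were higher in VAX2-marked cones, next to 2.02% of all genes. These were the netrin receptor genes neo1a (83.3 against 277 CPM, log2 ratio −1.74) and dscama ENSABLG00000003451 (13.02 against 83.6 CPM, −2.68), and the Robo adaptor SRGAP3 ENSABLG00000013113 (13.02 against 47.4 CPM, −1.86). PTK7 was higher in tbx5-marked cones, with 6 against 4 UMIs, next to 2.59% of all genes.

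**Figure D4:**
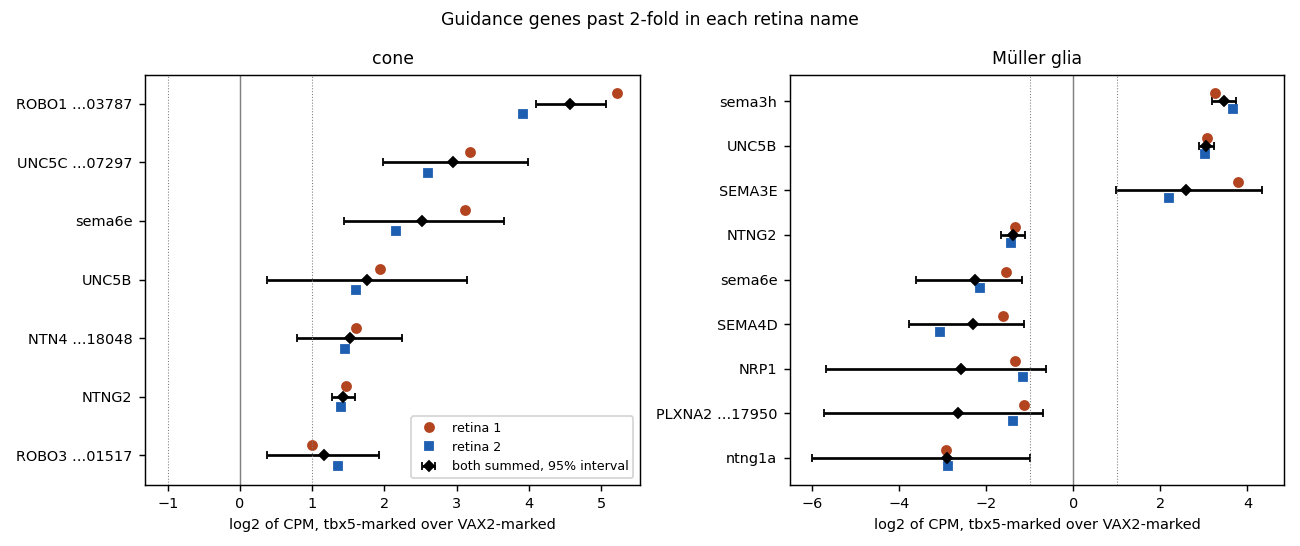
Log2 ratios of CPM in tbx5-marked over VAX2-marked nuclei are plotted for the genes past 2-fold in each retina name, with cones on the left and Müller glia on the right; diamonds give both names summed with a 95% counting interval, circles retina 1 and squares retina 2, and where a side had 0 UMIs in a retina name its point is a bound. In cones all 7 genes lie to the right of 0, led by ROBO1 at 4.57, while in Müller glia 3 lie to the right and 6 to the left.

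Since cone subtypes differ in these genes, the ratios were taken again within clusters. In the opn1sw1 cluster, with 30 tbx5-marked and 68 VAX2-marked nuclei, ROBO1 ENSABLG00000003787 reached 1356 and 593 CPM in the tbx5-marked nuclei of each retina name, against 89.3 and 88.2 CPM in VAX2-marked ones. The ratio on the log2 scale was 3.43 (2.88 to 4.03). With it, sema6e (3.24, interval 1.44 to 5.66, from 16 against 3 UMIs) and NTN4 ENSABLG00000018048 (1.19) passed 2-fold in each retina name, so 3 guidance genes did, next to 4.03% of all genes. The number of guidance genes that could be judged in this cluster is not given, so the count is not compared with that share. NTNG2 stood at 1921 against 1393 CPM in the opn1sw1 cluster, a log2 ratio of 0.46, compared with 1.43 over all cones. Markers of another photoreceptor class were found in none of these tbx5-marked barcodes and in 4.41% of the VAX2-marked ones.

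In the opn1sw2 cluster with mixed opsins, 16 tbx5-marked nuclei stood against 42 VAX2-marked nuclei. ROBO1 stood at 491 CPM in the tbx5-marked against 11.01 CPM in the VAX2-marked nuclei, and UNC5C ENSABLG00000007297 (log2 ratio 2.69) and NTNG2 (1.32) also passed 2-fold, next to 2.55% of all genes. That cluster held 306 CPM of middle-wave opsins and 280 CPM of opn1sw2. The opn1sw1 level there was 337 CPM on the tbx5-marked and 156 CPM on the VAX2-marked side. In the same order, middle-wave opsins had 130 and 539 CPM, opn1sw2 112 and 192 CPM and long-wave opsins 112 and 6.61 CPM. High doublet scores were found in 6.25% and 31.0% of barcodes. The part of the opsin differences and doublet scores in these ratios was not tested. The opn1lw1 cluster takes its name from its leading gene but held 262 CPM of long-wave and 313 CPM of middle-wave opsins. Its sides differed in them, with 295 against 116 CPM of long-wave and 152 against 503 CPM of middle-wave opsin in tbx5-marked against VAX2-marked nuclei. In that cluster, with 55 tbx5-marked and 35 VAX2-marked nuclei, none of the guidance genes passed 2-fold in each retina name, next to 2.43% of all genes. ROBO1 had 1 against 1 UMI there. On the VAX2-marked side none passed in any of these clusters. The shares of all genes on that side were 4.41% in the opn1sw1, 1.87% in the opn1sw2 and 2.45% in the opn1lw1 cluster. How many guidance genes could be judged in each cluster is not given, so the counts on either side are not compared with the shares. ROBO2 ENSABLG00000002065 was higher in tbx5-marked nuclei in all 3 clusters, with log2 ratios of 0.89 in the opn1sw1, 0.78 in the opn1sw2 and 0.33 in the opn1lw1 cluster and intervals above 0.

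Müller glia, the radial glia that span the retina, gave 61 tbx5-marked nuclei (37 in retina 1, 24 in retina 2) with a median of 6488 UMIs and 214 VAX2-marked nuclei (115 and 99) with a median of 5961 UMIs. Barcodes with photoreceptor markers were 21.3% of the tbx5-marked and 47.7% of the VAX2-marked nuclei, and high doublet scores were found in 27.9% and 49.5%. The median log2 ratio of all genes with at least 50 UMIs was −0.15, and relative to it 5 genes were higher in tbx5-marked and 4 in VAX2-marked nuclei. The share of all genes is not printed on that footing. Without that shift, 3 of 54 guidance genes were higher in tbx5-marked Müller glia, next to 3.42% of 11982 genes, and 6 were higher in VAX2-marked Müller glia, next to 6.15%.

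The netrin receptor gene UNC5B and the ligand gene sema3h were the most counted of the 3. UNC5B had 1769 and 1497 CPM in tbx5-marked Müller glia of retina 1 and retina 2, against 211 and 183 CPM in VAX2-marked Müller glia. The sums were 863 against 374 UMIs, a log2 ratio of 3.06 (2.88 to 3.24). The sema3h gene had 752 and 956 CPM in tbx5-marked Müller glia, against 78.8 and 75.3 CPM in VAX2-marked Müller glia, a log2 ratio of 3.45 (3.18 to 3.73) from 443 against 146 UMIs. For both genes the sides are well apart in each retina name. On the tbx5-marked side the largest share of 1 nucleus was 49 of 863 UMIs for UNC5B and 28 of 443 UMIs for sema3h. On the VAX2-marked side it was 23 of 374 UMIs for UNC5B and 35 of 146 UMIs for sema3h, which 21 of 214 nuclei carried. SEMA3E had a log2 ratio of 2.59 from 10 against 6 UMIs. Without barcodes that carried photoreceptor markers, UNC5B had 2353 and 1735 CPM in tbx5-marked Müller glia, against 273 and 160.3 CPM in VAX2-marked Müller glia (log2 ratio 3.28). On the same footing sema3h had 893 and 1151 CPM in tbx5-marked Müller glia, against 40.1 and 96.2 CPM in VAX2-marked Müller glia (3.86), and SEMA3E had 10 against 0 UMIs. UNC5B was the 1 gene past 2-fold on the tbx5-marked side in both cones and Müller glia, but its cone ratio rested on 10 against 11 UMIs and was −0.13, from 1 against 6 UMIs, where at least 2 UMIs of a marker were asked for.

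Over the 54 genes, 14 intervals lay above 0 and 19 below, with no share of all genes to set beside them. Short of the threshold, 5 plexins had ratios above 0 and 3 had ratios below 0 in each retina name. The share of all genes that do so is not given, so these counts are not read as a trait of plexins. The plxna1a gene had 689 and 897 CPM in tbx5-marked Müller glia, against 377 and 373 CPM in VAX2-marked Müller glia, a log2 ratio of 1.06. PLXNA3 had 958 and 864 CPM in tbx5-marked Müller glia, against 453 and 492 CPM in VAX2-marked Müller glia, a log2 ratio of 0.96. The other way went PLXNA2 ENSABLG00000005475 with a log2 ratio of −1.64, PLXNA1 with −0.98 and PLXNA4 with −0.57, each with an interval below 0. Log2 ratios were 1.23 for PLXND1 (28 against 43 UMIs), 0.77 for plxnb1b and 0.31 for plxnb2a, and among ligands 0.82 for sema3fa, 0.61 for SEMA5A, 0.53 for sema5bb and 0.50 for SEMA6A. By contrast unc5da, which led in Müller glia, was nearly even, with 594 and 516 CPM in tbx5-marked nuclei, against 611 and 641 CPM in VAX2-marked nuclei (log2 ratio −0.16, interval −0.35 to 0.02). SLIT2 was close to even as well, with a log2 ratio of 0.03 (−0.20 to 0.25).

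On the VAX2-marked side most counts were small. NTNG2 had 213 and 243 CPM in tbx5-marked Müller glia, against 535 and 652 CPM in VAX2-marked Müller glia, a log2 ratio of −1.38 (−1.67 to −1.11). With barcodes that carried photoreceptor markers left out, NTNG2 had 32.1 CPM on both sides, from 11 against 17 UMIs. SEMA4D had 13.98 and 8.39 CPM in tbx5-marked Müller glia, against 43.0 and 69.9 CPM in VAX2-marked Müller glia (−2.29, interval −3.77 to −1.12). The sema6e gene had 24.5 and 0 CPM in tbx5-marked Müller glia, against 71.7 and 55.7 CPM in VAX2-marked Müller glia (−2.26, −3.61 to −1.17). These 2 genes had log2 ratios of −2.40 and −2.78 without barcodes that carried photoreceptor markers. The other 3, ntng1a (−2.90, interval −5.99 to −0.98), PLXNA2 ENSABLG00000017950 (−2.64, −5.73 to −0.70) and NRP1 (−2.57, −5.67 to −0.63), each had 2 UMIs in tbx5-marked Müller glia, against 43 to 54 UMIs in VAX2-marked Müller glia. Without barcodes that carried photoreceptor markers these were 2 against 15 UMIs for ntng1a, 1 against 8 for PLXNA2 and 0 against 18 for NRP1, of which 17 came from retina 1. In retina 1 ntng1a then had 5.45 CPM in tbx5-marked Müller glia, against 8.02 CPM in VAX2-marked Müller glia, and PLXNA2 had 1 against 0 UMIs, so that neither passed 2-fold in each retina name. For sema6e, PLXNA2 and NRP1 the tbx5-marked side had 0 UMIs in 1 retina name, where 3 counts were put in its place. The sema5ba gene had 0 against 49 UMIs over both retina names, with an upper interval limit of −1.83 on the log2 scale. It was not counted as higher in VAX2-marked Müller glia, since 3 counts in place of 0 gave −0.87 in retina 2.

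**Figure D5:**
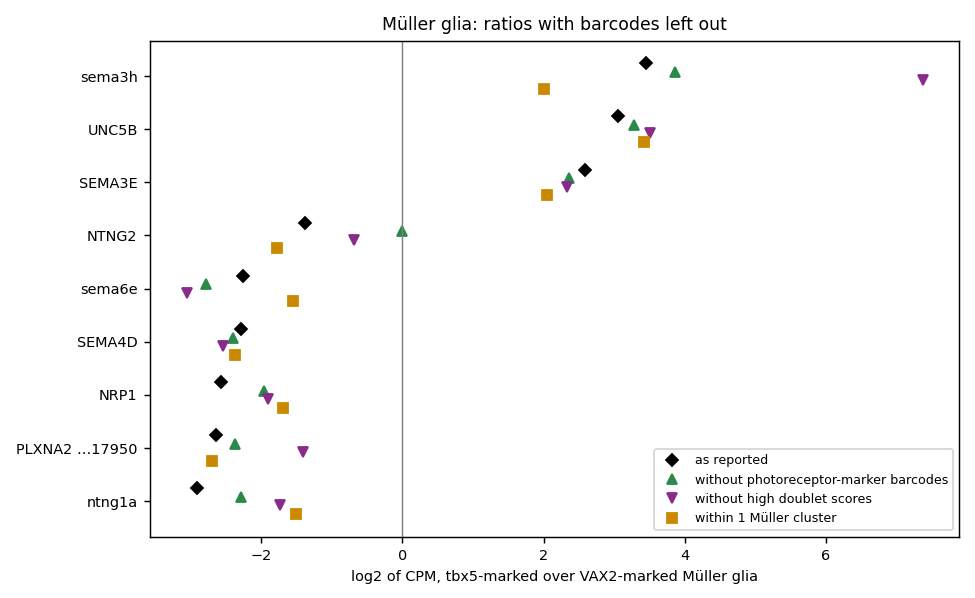
Log2 ratios of CPM in tbx5-marked over VAX2-marked Müller glia are plotted for the 9 genes past 2-fold, as reported (diamonds), without barcodes carrying photoreceptor markers (upward triangles), without high doublet scores (downward triangles) and within 1 Müller glia cluster (squares); where a side had 0 UMIs the point is a bound. UNC5B stays between 3.06 and 3.51, whereas NTNG2 lies at 0 once barcodes with photoreceptor markers are left out.

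Müller glia fell into 2 clusters, of which one, with 53 tbx5-marked and 46 VAX2-marked nuclei, allowed a ratio. Within it UNC5B stood at 1848 CPM on the tbx5-marked and 172 CPM on the VAX2-marked side, a log2 ratio of 3.42 (3.11 to 3.75), and sema3h at 912 and 228 CPM, a log2 ratio of 1.999 (1.70 to 2.30). These were the 2 genes past 2-fold on the tbx5-marked side, next to 3.62% of all genes. How many guidance genes reached 10 UMIs in this cluster is not given, so its counts are not compared with the shares. On the VAX2-marked side 8 passed, next to 7.6% of all genes, among them sema3fb (−1.86), ROBO2 ENSABLG00000002065 (−1.46), SEMA7A (−2.56) and sema4ab (−1.19), which are genes of cones or rods in the comparison of classes. Barcodes with photoreceptor markers were 13.2% of the tbx5-marked and 50% of the VAX2-marked nuclei of this cluster, and their part in those 8 ratios was not tested. In the list of other guidance genes, 44 reached 10 UMIs in marked Müller glia. None was higher in tbx5-marked nuclei, next to 3.42% of all genes, and 5 were higher in VAX2-marked nuclei, next to 6.15%. FARP1 ENSABLG00000014328, a plexin-associated exchange factor, was the most counted of them, with 191 against 416 CPM (log2 ratio −1.13), and the others were chl1b ENSABLG00000001076, dpysl5a, DSCAML1 ENSABLG00000015678 and mical3b. No pair of copies of a guidance gene went past 2-fold in opposite directions between the sides in either class.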

How the data were processed

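Per the labels, fixed nuclei of whole retinas were barcoded in combination and sequenced as paired-end reads in technical sublibraries. The values the authors deposited are raw UMI counts, not normalized. The sources used here name no aligner, build, annotation or barcode filter, and no genome or gene length was used. The retina name comes from the deposited barcode table and matches no label, so names are not replicates of a labelled group and no test was made.

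From the counts, 6430 barcodes with at least 500 UMIs were kept of 119839, with 54700414 of 58447723 UMIs. Clustering used scanpy 1.11.5 (counts scaled to 10000, 2500 variable genes asked for, 40 components, 15 neighbours, Leiden at resolution 2). Guidance, tbx5, vax and opsin genes were left out. Clusters were named by at least 3 markers with a fold of at least 2 and detection in at least 10% of nuclei. Clusters with tied markers, low depth or leading genes of another class stayed unnamed. Only 3 of these, with at least 50 nuclei each, were used, a choice made after the data were seen, and 861 nuclei were in no class, 402 of them rod-and-cone mixtures. Scrublet doublet scores were taken in each sublibrary. Its automatic thresholds differed widely between the sublibraries, and the higher one marked hardly any nuclei. The lower one, 0.0578, was used for both and marked 37.0% of nuclei. All shares of high doublet scores rest on this choice. Such barcodes were kept, and values without them are alternatives. Among nuclei 99 barcode-well combinations occur in both sublibraries. Summed rod counts of the retina names differed by more than sampling noise, with a chi-square of 1.66 per degree of freedom over 5970 genes.

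UMIs were summed per class and retina name and given as CPM. Log2 ratios have 95% exact conditional (Clopper-Pearson) intervals, for counting error only. A count of 0 was set to 3 counts. Genes named singly were those with a class lead or past 2-fold between the sides, copies going opposite ways, and ROBO1, and further genes were named after their values were seen. Members and gene lists were chosen with earlier results of these data known.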

Additional observations from a re-analysis of the deposited data

Results flagged for a closer look

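There were 9 genes that went in opposite directions in cones and Müller glia in every retina name, and the difference between the classes was not tested. No share of all genes that do so is given, so the 9 are not read as a trait of guidance genes. For the first 5, the 95% counting intervals of both classes lay off 0. The log2 ratio of tbx5-marked over VAX2-marked nuclei was 2.52 in cones and −2.26 in Müller glia for sema6e, and 1.43 in cones and −1.38 in Müller glia for NTNG2. For ROBO2 ENSABLG00000002065 it was 0.94 in cones and −1.08 in Müller glia. SEMA6D had 0.72 in cones and −1.12 in Müller glia, and sema3fb 0.48 in cones and −0.98 in Müller glia. In Müller glia of retina 1 SEMA6D was nearly even, with 59.4 CPM in tbx5-marked and 60.4 CPM in VAX2-marked nuclei. Its Müller glia ratio came from retina 2, with 8.39 against 98.2 CPM from 2 against 90 UMIs. For the other 4 at least 1 interval reached across 0. They were plxnb1b (−1.21 in cones, 0.77 in Müller glia), ROBO3 ENSABLG00000013591 (0.97 in cones, −0.68 in Müller glia), ROBO2 ENSABLG00000002276 (0.34 in cones, −0.96 in Müller glia) and ntng1a (0.73 in cones, −2.90 in Müller glia). For ROBO2 ENSABLG00000002276 the log2 ratio in Müller glia of retina 2 was −0.06, from 2 against 8 UMIs. Of the 5, ROBO2 ENSABLG00000002065 and sema3fb were highest in cones and NTNG2 in rods, and photoreceptor markers were found in 21.3% of tbx5-marked and 47.7% of VAX2-marked Müller glia barcodes. Without those barcodes the Müller glia ratio was 0.31 for sema3fb (4 against 5 UMIs), −0.61 for ROBO2 (25 against 59 UMIs), −1.18 for SEMA6D (10 against 35 UMIs) and −2.78 for sema6e (5 against 53 UMIs), and NTNG2 had 32.1 CPM on both sides.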

How the results depend on the processing

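No paired analysis was possible because no result comes from a test across samples, as the retina names match no label; ratios within each retina name are given instead. The number of genes with a class lead, 8 as reported next to 13.3% of all genes, was 14 at Leiden resolution 1 (6 of them shared with the 8; 16% of all genes), 16 at resolution 0.5 (18.5%), 13 with at least 1000 UMIs per nucleus (17%), 25 without high doublet scores (24.2%), 14 without barcodes of other classes carrying photoreceptor markers (22.1%), 19 at 1.5-fold (23.1%), 2 at 3-fold (6.17%) and, as an alternative added after the data were seen, 13 with equal weight per nucleus (18.3%). As shares of the guidance genes that reached the UMI minimum, these counts were 12.9% as reported, 22.2% at resolution 1 and 25.4% at resolution 0.5. They were 21% with at least 1000 UMIs, 41% without high doublet scores and 23.3% without photoreceptor-marker barcodes. At 1.5-fold the share was 30.6%, at 3-fold 3.23% and with equal weight 21.3%. The count of genes higher in tbx5-marked cones, 7 as reported, was 4 at 3-fold, 3 after thinning to 1000 UMIs, 3 within the opn1sw1 cluster, 3 within the opn1sw2 cluster and 0 within the opn1lw1 cluster. The count higher in VAX2-marked cones, 0 as reported, was 1 at 1.5-fold and 3 with a count of 0 taken as passing (added). For tbx5-marked Müller glia, 3 as reported, it was 9 at 1.5-fold, 7 with at least 2 UMIs of a marker and 5 centred on the median gene (added). For VAX2-marked Müller glia, 6 as reported, it was 10 at resolution 0.5, 10 with at least 1000 UMIs, 12 at 1.5-fold, 2 at 3-fold, 0 after thinning and 10 with a count of 0 taken as passing (added). With a single retina name the counts ranged from 12 to 14 for class leads (18.8% and 21.5% of all genes), 8 to 8 and 1 to 2 for cones, and 5 to 7 and 11 to 17 for Müller glia, in the order tbx5-marked and VAX2-marked. For the counts between the sides, the share of all genes is printed above only for the settings as reported and within clusters. Shifts of those counts with the setting are therefore not read as changes of the guidance genes. Signs turned for NTNG2 in Müller glia without photoreceptor-marker barcodes (0.0008), UNC5B in cones with at least 2 UMIs of a marker (−0.13, from 1 against 6 UMIs), ROBO1 ENSABLG00000003787 within the opn1lw1 cluster (−0.31), and ROBO3 ENSABLG00000001517 within the opn1sw1 (−0.76) and opn1sw2 (−2.27) clusters. The causes were not tested. Of 263 recomputed log2 ratios of single genes, 234 kept their direction within the counting interval. Depth limits the small counts: 34 of the 69 genes had under 10 UMIs in marked cones.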
